A study of Mus musculus with 24 samples.

Results

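Kit and Kitl, the genes for the receptor tyrosine kinase Kit and for its ligand, were followed through the sorted mammary epithelium of pubertal mice. They are 2 of the 27179 genes in the count table, found by their Entrez identifiers 16590 (Kit) and 17311 (Kitl). The pair was selected on measured values, Kit's counts across the 12 groups of libraries, where Kit was higher in terminal end buds (TEBs) than in ducts in the basal gate and lower in the luminal gate. Those differences of Kit between tissues are therefore given below as a description, with no test. Kitl, and the differences of Kit between reporter gates, are not the change named in that choice and were tested. The members were chosen with earlier results of these data known, so those tests are not free of the choice.

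Kit spans the cell membrane, pairs with a second Kit molecule when its ligand binds, and then phosphorylates itself and the adaptors that dock on it. Kit ligand, also called stem cell factor, is made as a membrane protein that can act on a touching cell or be released by proteases. The pair is known for its part in germ cells, pigment cells, mast cells and blood stem cells, and in the mammary gland Kit is widely used as a surface marker of luminal progenitors.

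RNA of 24 libraries, 2 in each of 12 groups, was measured by RNA-seq. Cells came from microdissected ducts or from TEBs, the bulbs at the tips of growing ducts, which have an outer layer of cap cells around body cells. In both tissues the cells were sorted as lineage-negative and EpCAM+, and by CD29, the integrin encoded by Itgb1, into a CD29hi basal gate and a CD29lo luminal gate. The mice were of the models Elf5-rtTA-IRES-GFP and PR-cre/Rosa26-LSL-eYFP. In the Elf5 model GFP comes from the Elf5 locus, the gene of a transcription factor of luminal progenitors, and the luminal gate was divided into GFP+ and GFP-. In the PR-cre model Cre comes from the progesterone receptor locus and removes a stop cassette for good, so YFP marks cells that make the receptor and cells that descend from them, and the luminal gate was divided into YFP+ and YFP-. The basal gate of each model was sorted without regard to the reporter, as far as the labels say. All mice carried a reporter model and none is labelled as a plain wild type, and the labels give the age only as pubertal and no strain or sex.

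GFP+ and YFP- luminal cells are called the progenitor side below, and GFP- and YFP+ luminal cells the hormone-sensing side. Elf5 lay between 410 and 1660 CPM in the 8 progenitor-side libraries and between 15 and 87.3 CPM in the 8 hormone-sensing-side libraries. CPM is the usual scale of a gene's counts relative to the total of its library, here after scaling for composition. Pgr, the progesterone receptor gene, lay between 13.2 and 73.3 CPM on the progenitor side and between 202 and 635 CPM on the hormone-sensing side. Itgb1 lay between 1270 and 1570 CPM in the 8 basal libraries and between 498 and 713 CPM in the 16 luminal ones. Total counts ran from 31264622 to 52495208 a library, and 3 counts, the limit that a count of 0 allows, stood for 0.0571 to 0.096 CPM. Such limits cover counting error only, since the reads carry no molecular identifiers. No label states that replicate libraries are from different animals, and the p-values then reflect only how far these libraries scatter, which may be technical. Libraries of different gates may come from the same preparation.

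A pair of luminal libraries stood apart. The summed level of 10 keratinocyte genes was 2090 CPM in replicate 2 of the GFP- ducts and 396 CPM in replicate 2 of the YFP- TEBs, against 7.54 to 69.7 CPM in the other 22 libraries. Results that rest on these 2 libraries are given with and without them.

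The start of Kit is shown because the level of its transcript set the groups apart. In the mouse build GRCm38.p6 Kit lies on chromosome 5 from 75574987 to 75656722 on the plus strand, with 21 exons, between Pdgfra, 376.8 kb before it, and Kdr, 276.1 kb after it. Kitl lies on chromosome 10 from 100015615 to 100100416 on the plus strand, with 10 exons in its longest coding transcript and 9 in another. No annotated gene overlaps either one. The stretch below, 179 bases at chr5:75574737-75574915, ends just before the first annotated Kit transcript, and its capitals mark GGAA, the core of sites for ETS factors, the family of Elf5, and GGGCGG, a GC box. It is read 5′ to 3′ on the plus strand from RefSeq's sequence of that build.
Kit: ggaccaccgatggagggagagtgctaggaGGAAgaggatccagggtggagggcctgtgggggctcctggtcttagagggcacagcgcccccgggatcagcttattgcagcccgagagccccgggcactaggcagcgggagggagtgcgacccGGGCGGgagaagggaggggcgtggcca
5 letter strings, none of which contains another, were searched on both strands in the 250 bases before 1 RefSeq transcript start of each gene. For Kit that start is 75574987, and for Kitl it is 100015821, which lies inside the gene, after the outermost start given above. Both windows therefore reach into the longest annotated transcript, which starts at 75574916 for Kit and 100015630 for Kitl. TATAAA, the core of a TATA box, was found 0 times in the window of Kit and 1 time in that of Kitl, and it stands before 13.0% of 27025 RefSeq starts. GGGCGG was found 1 time for Kit and 3 times for Kitl, and stands before 32.9% of starts. GGAA was found 1 time for Kit and 3 times for Kitl, and is present before 93.4% of starts. GATA, which 54.1% of starts have, and CANNTG, an E-box that 66.0% have, were found 0 times in either window. These are matches of letters only, and say nothing of which factor binds.

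The level of Kit set the sorted populations apart by orders of magnitude. Kit was highest in the YFP- ducts, at 2015 and 2110 CPM, followed by the YFP- TEBs, at 1233 and 1350 CPM. The GFP+ ducts had 808.8 and 858.6 CPM and the GFP+ TEBs 834.2 and 772.9 CPM. These 8 progenitor-side libraries lay above all others, and the GFP+ ducts and GFP+ TEBs overlapped. The lowest of these 4 group means was 8.24-fold above the next group in the order.

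Below that gap came the YFP+ ducts, with 137.6 and 57.4 CPM of Kit, whose range held that of the basal TEBs of the Elf5 model, at 86.8 and 71.7 CPM. Basal TEBs of the PR-cre model had 69.3 and 56.8 CPM. YFP+ TEBs had 31.65 and 10.8 CPM and GFP- ducts 3.81 and 32.6 CPM, and those groups overlapped. The lowest levels were those of the basal ducts, at 7.76 and 7.23 CPM in the Elf5 model and 5.90 and 4.93 CPM in the PR-cre model, and of the GFP- TEBs, at 3.31 and 5.93 CPM. Basal ducts of the PR-cre model and GFP- TEBs overlapped, and every value was well above the limit that a count of 0 allows.

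Kitl ran in another order and over a narrower range. It was highest in the basal ducts, at 1224 and 1318 CPM in the Elf5 model and 767.6 and 883.5 CPM in the PR-cre model. The GFP+ ducts followed with 422.5 and 435.3 CPM, and the GFP- ducts with 351.1 and 398.4 CPM. None of these 4 groups of ducts overlapped its neighbour in the order.

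Basal TEBs had 289.9 and 276.6 CPM of Kitl in the Elf5 model and 285.5 and 300.7 CPM in the PR-cre model, and GFP- TEBs had 304.5 and 242.9 CPM. These 3 groups overlapped. GFP+ TEBs were lower, at 200.8 and 213.8 CPM. YFP- ducts, with 164.2 and 138.1 CPM, overlapped YFP- TEBs, with 152.9 and 120.9 CPM. The YFP+ ducts, at 108.0 and 47.15 CPM, and the YFP+ TEBs, at 91.4 and 56.9 CPM, were lowest and overlapped.

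**Figure D1:**
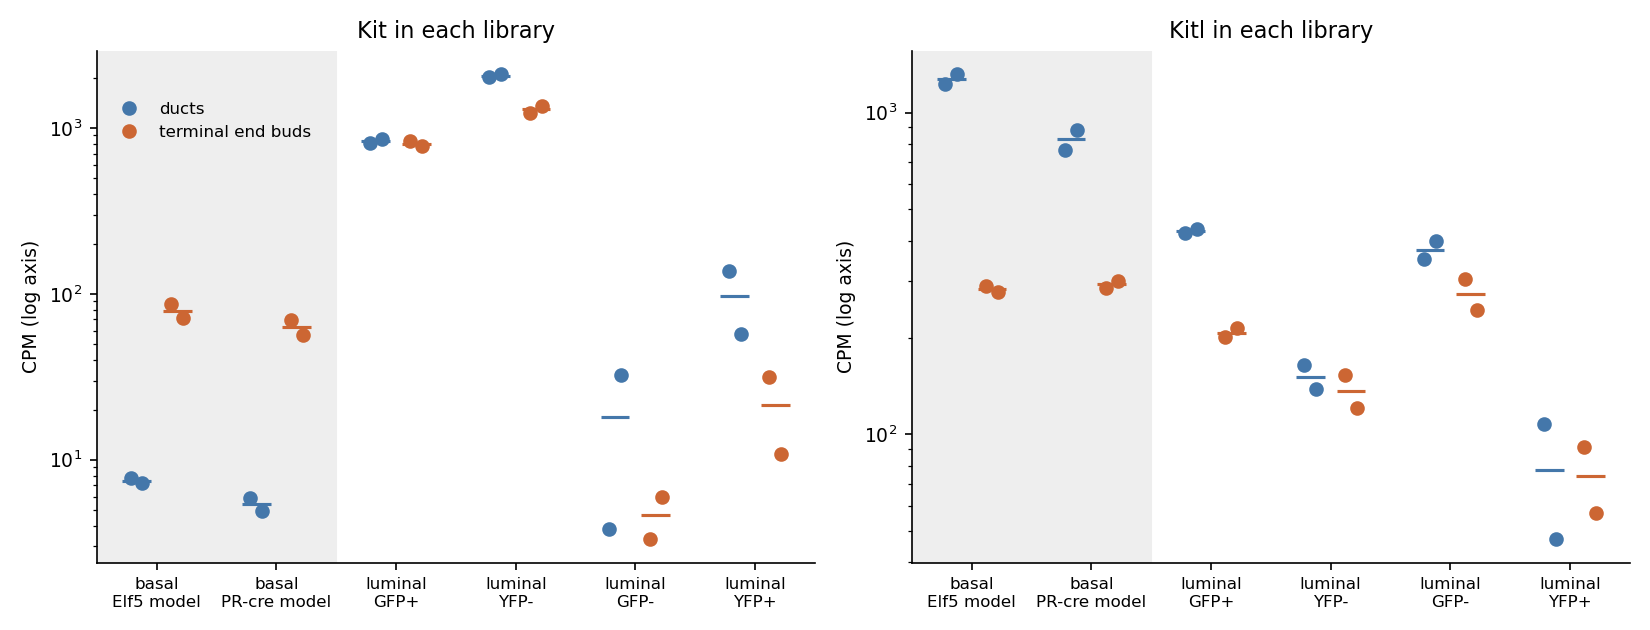
Kit (left) and Kitl (right) in each library, in CPM on a log axis, by sorted population, with ducts in blue and terminal end buds in orange. Points are libraries, bars are means of 2, and the grey band holds the basal gate. Kit is above 770 CPM in the 8 GFP+ and YFP- libraries and at or below 137.6 CPM in the other 16, and Kitl is highest in the 4 libraries of basal ducts.

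Kit, the receptor, was higher in basal TEBs than in basal ducts in every library of both models. The mean was 6.45 ± 1.28 CPM (SD, n = 4) in basal ducts and 71.1 ± 12.3 CPM (n = 4) in basal TEBs. The fitted log2 difference was 3.47 ± 0.54 (SE), 11.1-fold, and it was 3.40 ± 0.76 in the Elf5 model and 3.54 ± 0.77 in the PR-cre model. Over all 18109 genes tested, 20.9% were called higher in this comparison, at an adjusted p under 0.05.

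In the luminal gates the size of the difference depended on the gate. For Kit the log2 difference between TEBs and ducts was -0.05 ± 0.68 in the GFP+ gate and -0.68 ± 0.68 in the YFP- gate. The YFP- libraries did not overlap between tissues, and the GFP+ ones did. The YFP+ gate, where the tissues did not overlap either, differed by -2.20 ± 0.71, with -1.43 without replicate 1 of its ducts. The GFP- gate differed by -1.97 ± 0.74 and the tissues overlapped. Without the 2 libraries that held keratinocyte transcripts that value was 0.28, the other sign, since replicate 2 of the GFP- ducts had 32.6 CPM and replicate 1 had 3.81 CPM.

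Over all 4 luminal gates Kit's log2 difference was -1.22 ± 0.35, and it was -0.67 without replicate 2 of the GFP- ducts. On the hormone-sensing side alone it was -2.08 ± 0.51, and -0.97 without both libraries. The basal difference exceeded the luminal one by 4.70 ± 0.64, and by 4.15 without both libraries. In the luminal comparison 18.6% of all genes were called lower. Of the genes tested 297, or 1.64%, were called higher in basal TEBs and lower in luminal TEBs. Kit was chosen for such values, so nothing about Kit is read from that share. In bulk samples such as these, fewer cells of a type and less RNA per cell cannot be told apart.

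In ducts Kit was lower in the basal gate than in most luminal libraries, and in TEBs it lay between the luminal sides. In ducts the basal libraries, with 4.93 to 7.76 CPM, were below 7 of the 8 luminal ones, and the fitted log2 difference was -5.20 ± 0.56. In TEBs the basal libraries, with 56.8 to 86.75 CPM, lay above the hormone-sensing side, at 3.31 to 31.65 CPM. They lay below the progenitor side, at 772.9 to 1350 CPM. There the difference was -0.51 ± 0.43, basal minus luminal. That value averages over a luminal side above and a luminal side below the basal level.

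Markers of other cells were read beside the basal rise of Kit. The summed level of 8 luminal keratin and junction genes was 754 to 931 CPM in basal ducts and 391 to 620 CPM in basal TEBs, and 0 of them were called higher and 5 lower, where 22.8% of all genes were called lower. Krt18, a luminal keratin, lay between 98.6 and 137 CPM in basal ducts and between 9.46 and 20.4 CPM in basal TEBs. The 10 luminal progenitor genes other than Kit summed to 786 to 1180 CPM in basal ducts and 641 to 899 CPM in basal TEBs. Of them 2 were called higher, Aldh1a3 and Itga2, and 3 lower, Cd14, Elf5 and Lcn2. These counts are close to the share of all genes called, 43.6%. The lowest and the highest value of both sums were lower in basal TEBs than in basal ducts. The progenitor sum followed mainly Lcn2, its most abundant gene on average, which went from 580 to 245 CPM. As a list the 10 progenitor genes did not fall, with a median log2 difference of 0.01 against -0.04 over all genes. The part of luminal cells in the rise of Kit was not tested.

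Elf5 itself was 22.9 and 29.2 CPM in the basal ducts of the Elf5 model and 16.9 and 19.3 CPM in its basal TEBs. In the PR-cre model Elf5 was 1.48 and 3.36 CPM in basal ducts and 1.02 and 1.38 CPM in basal TEBs. The basal fall of Elf5 had a log2 value of -0.77 (adjusted p = 0.0142, edgeR's quasi-likelihood test).

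Mast cells and pigment cells are the other common bearers of Kit. The 8 mast cell genes summed to 0.12 to 2.97 CPM in basal ducts and 0.0788 to 0.34 CPM in basal TEBs, and Cpa3, Tpsb2, Tpsab1, Fcer1a and Ms4a2 had no counts in either. The 7 pigment cell genes summed to 1.02 to 2.49 and 0.841 to 1.5 CPM, and Tyr, the enzyme that makes pigment, had no counts. Replicate 2 of the GFP- ducts, with 32.6 CPM of Kit, had 24 counts of Dct, another pigment cell gene, and replicate 1 had 0. The 7 genes summed to 2.69 CPM in replicate 2 and 2.04 CPM in replicate 1, with no counts of Tyr. Their part in Kit's level was not tested. Leukocyte genes summed to 23.9 to 52.3 CPM in basal ducts and 4.55 to 9.01 CPM in basal TEBs, and endothelial genes to 7.5 to 90.2 and 6.7 to 9.2 CPM. The 7 fibroblast genes summed to 372 to 935 CPM in basal ducts and 575 to 1470 CPM in basal TEBs. Of them 1 was called higher, where 20.9% of all genes were. The part of fibroblast transcripts in the difference of Kit was not tested.

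Basal and cell cycle genes also differed between basal ducts and basal TEBs, in opposite directions. The 10 basal and myoepithelial genes, among them keratins and smooth muscle genes, summed to 29600 to 32000 CPM in basal ducts and 7440 to 13800 CPM in basal TEBs. Of them 0 were called higher and 6 lower, where 20.9% and 22.8% of all genes were. The 6 cell cycle genes summed to 241 to 470 CPM in basal ducts and 1390 to 1740 CPM in basal TEBs, with 5 called higher, against 20.9% of all genes. The part of both lists in the rise of Kit was not tested.

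In the YFP+ gate the fall of Kit stood beside a fall of Elf5, from 77.8 and 87.3 CPM in ducts to 22.8 and 15 CPM in TEBs. The 10 luminal progenitor genes other than Kit summed there to 618 and 401 CPM in ducts and to 322 and 208 CPM in TEBs, with no overlap. Aldh1a3, an enzyme that marks luminal progenitors, had 125 and 56.3 CPM in those ducts and 40.6 and 13.3 CPM in those TEBs. The progenitor sums were thus lower in YFP+ TEBs together with Kit, and their part in Kit's difference was not tested. In the GFP- gate the sums were 175 and 325 CPM in ducts and 209 and 280 CPM in TEBs, and the TEB values lay inside the range of the ducts.

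The reporters divided the luminal gate sharply by Kit in both tissues. In ducts Kit was 1448 ± 711 CPM on the progenitor side and 57.8 ± 57.5 CPM on the hormone-sensing side (SD, n = 4 libraries each). The libraries did not overlap, and the log2 difference was 4.96 ± 0.57, 31.1-fold (adjusted p = 6.14e-06, edgeR's quasi-likelihood test). In TEBs Kit was 1047 ± 287 CPM and 12.9 ± 12.9 CPM, again with no overlap, and the log2 difference was 6.68 ± 0.62, 103-fold (adjusted p = 8.47e-07, edgeR). Over all genes 24.6% were called higher on the progenitor side in ducts and 24.6% in TEBs. Without the libraries that held keratinocyte transcripts the values were 6.07 in ducts and 6.64 in TEBs, both called (adjusted p = 1.13e-06 and 7.90e-08, edgeR).

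As the difference of both tissue effects, the reporter gap in TEBs exceeded that in ducts by 1.72 ± 0.69, a value that rests on replicate 2 of the GFP- ducts and was 0.57 without both libraries. It uses Kit's tissue difference and was not tested. The 10 luminal progenitor genes other than Kit were called higher on the progenitor side in 10 of 10 cases in ducts and 9 of 10 in TEBs, with medians of 4.43 and 4.54 on the log2 scale. Elf5, which drives one of the reporters, is among them.

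The gates of the models that lie on the same side were also compared, a comparison added after the data were seen. Both YFP- libraries lay above both GFP+ libraries for Kit in ducts and in TEBs. The log2 difference was 1.31 ± 0.69 in ducts and 0.68 ± 0.68 in TEBs, and neither passed the test with the spread shared over all groups (adjusted p = 0.249 and 0.579, edgeR). In fits of only the 4 libraries compared both passed (adjusted p = 8.72e-05 and 0.00366, edgeR), so the call rests on which libraries set the spread. Over all genes 5.83% were called higher in YFP- than GFP+ ducts and 5.05% in TEBs.

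Both YFP+ libraries lay above both GFP- libraries for Kit, by 2.42 ± 0.72 on the log2 scale in ducts and 2.20 ± 0.74 in TEBs. These missed the threshold (adjusted p = 0.0512 and 0.0975, edgeR). Without the libraries that held keratinocyte transcripts they were 4.71 and 2.20 and passed (adjusted p = 0.00229 and 0.0151, edgeR). Single libraries moved these values. In ducts the difference was 1.61 without replicate 1 of the GFP- ducts, 1.67 without replicate 1 of the YFP+ ducts and 4.69 without replicate 2 of the GFP- ducts (adjusted p = 0.0794, 0.277 and 0.0013, edgeR). In TEBs it was 1.23 without replicate 1 of the YFP+ TEBs (adjusted p = 0.584, edgeR) and at most 2.77 without any other library. Over the alternatives other than single left-out libraries the adjusted p ran from 0.00189 to 0.509 in ducts and from 0.00673 to 0.161 in TEBs (edgeR and DESeq2). Over all genes 4.55% were called higher in YFP+ than GFP- ducts and 3.92% in TEBs.

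Kitl, the ligand, fell in basal TEBs, where Kit was higher. Its mean was 1048 ± 264 CPM in basal ducts and 288 ± 10.0 CPM in basal TEBs (SD, n = 4 libraries each), with no overlap. The log2 difference was -1.83 ± 0.20, 3.55-fold (adjusted p = 4.03e-06, edgeR). Over all genes 22.8% were called lower. In the Elf5 model it was -2.17 ± 0.29 (adjusted p = 4.54e-05, edgeR) and in the PR-cre model -1.49 ± 0.29 (adjusted p = 0.00137, edgeR), where 19.2% and 12.7% of genes were called lower.

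In the luminal gates Kitl changed less. The mean of the 8 libraries was 258 ± 159 CPM in ducts and 173 ± 82.7 CPM in TEBs, with wide overlap since the gates differ in level. The log2 difference over the 4 gates was -0.43 ± 0.14 (adjusted p = 0.0249, edgeR), in a comparison where 18.6% of genes were called lower. The call was lost without the 2 libraries that held keratinocyte transcripts, at -0.38 (adjusted p = 0.103, edgeR), and in 5 of 16 fits that left out 1 library each, those without replicate 1 of the GFP+ TEBs or YFP- ducts or without replicate 2 of the YFP+, GFP- or YFP- TEBs.

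By gate, the fall of Kitl passed in the GFP+ cells, with -1.05 ± 0.28 (adjusted p = 0.0150, edgeR), and the libraries of the tissues did not overlap. There 10.9% of all genes were called lower. That call was lost when any 1 of its 4 libraries was left out, with values from -1.09 to -1.0 (adjusted p from 0.0562 to 0.107, edgeR). The GFP-, YFP- and YFP+ gates, in that order, did not pass (adjusted p = 0.286, 0.794 and 0.966, edgeR). Their values were -0.45 ± 0.28, -0.14 ± 0.28 and -0.06 ± 0.28. The tissues did not overlap in the GFP- gate, at 351.1 and 398.4 CPM in ducts and 304.5 and 242.9 CPM in TEBs. They overlapped in the YFP- and YFP+ gates.

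On the progenitor side as a whole Kitl differed by -0.60 ± 0.20 (adjusted p = 0.0317, edgeR, with 15.2% of genes called lower) and on the hormone-sensing side by -0.26 ± 0.20 (adjusted p = 0.388, edgeR). The progenitor-side call was lost in 6 of 8 fits that left out 1 library, and without both libraries with keratinocyte transcripts, at -0.52 (adjusted p = 0.122, edgeR). The difference of those effects was -0.34 ± 0.28 (adjusted p = 0.529, edgeR), which did not pass. It was -0.73 and passed without replicate 1 of the YFP+ ducts (adjusted p = 0.0245, edgeR).

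The basal fall of Kitl was larger than the luminal one, and Kitl's pattern, called lower in both, was shared by 1685 genes, 9.3% of those tested. The difference of the effects was -1.40 ± 0.24 on the log2 scale (adjusted p = 0.000532, edgeR), and 14.9% of genes were called in that direction. Leaving out 1 library at a time gave -1.53 to -1.23 (adjusted p from 4.05e-06 to 0.00381, edgeR).

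**Figure D2:**
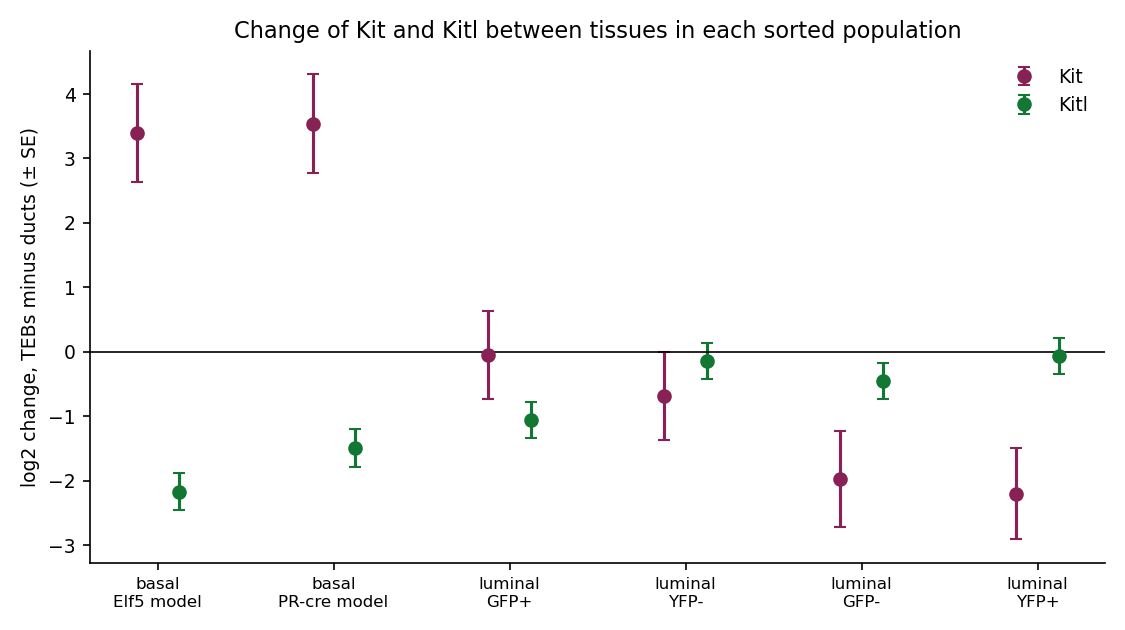
Log2 difference between TEBs and ducts with its SE for Kit (purple) and Kitl (green) in each of the 6 sorted populations, 2 libraries per tissue. Kit is 3.40 and 3.54 in the basal gates and at or below -0.05 in the luminal ones, and the GFP- value of -1.97 becomes 0.28 without the libraries that held keratinocyte transcripts. Kitl is at its lowest, -2.17 and -1.49, in the basal gates.

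Kitl was higher in the basal gate than in the luminal gates. In ducts the log2 difference was 2.30 ± 0.16, 4.92-fold, with basal libraries from 767.6 to 1318 CPM and luminal ones from 47.15 to 435.3 CPM (adjusted p = 7.09e-09, edgeR). In TEBs it was 0.89 ± 0.17, 1.86-fold, and 1 of the 8 luminal libraries, at 304.5 CPM, reached above the basal range of 276.6 to 300.7 CPM (adjusted p = 0.00025, edgeR). Over all genes 33.5% were called higher in basal ducts and 30.8% in basal TEBs.

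Averaged over the models, Kitl differed little between the reporter sides. In ducts it was 290 ± 161 CPM on the progenitor side and 226 ± 174 CPM on the hormone-sensing side (SD, n = 4 each), a log2 difference of 0.58 ± 0.20 with overlapping libraries (adjusted p = 0.0256, edgeR). The call was lost without both libraries with keratinocyte transcripts, at 0.60 (adjusted p = 0.0553, edgeR), and in 6 of 8 fits that left out 1 library. In TEBs it was 172 ± 43.0 and 174 ± 119 CPM, a log2 difference of 0.24 ± 0.20 (adjusted p = 0.347, edgeR). The groups' mean CPM and the fitted value differ in sign there, since the fit averages on the log scale. The TEB average also joins opposite directions. In TEBs the mean of Kitl was 207 CPM in GFP+ against 274 CPM in GFP- cells. In the PR-cre model it was 137 CPM in YFP- against 74.2 CPM in YFP+ cells. Neither pair overlapped. In ducts the progenitor side was higher in both models, at 429 against 375 CPM and 151 against 77.6 CPM.

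Kitl also differed between the models in the luminal gates, again in comparisons added after the data were seen. YFP- ducts were 1.5 ± 0.29 below GFP+ ducts on the log2 scale (adjusted p = 0.00230, edgeR), with 164.2 and 138.1 against 422.5 and 435.3 CPM. YFP+ ducts were 2.27 ± 0.29 below GFP- ducts (adjusted p = 0.000163, edgeR), and YFP+ TEBs 1.88 ± 0.29 below GFP- TEBs (adjusted p = 0.000693, edgeR). These groups did not overlap, and 8.13%, 5.26% and 3.84% of genes were called lower. A fit of only the 4 libraries compared lost the YFP+ duct call, at -2.28 (adjusted p = 0.150, edgeR). YFP- TEBs differed from GFP+ TEBs by -0.60 (adjusted p = 0.2, edgeR), and in a fit of only those 4 libraries this passed (adjusted p = 0.0126, edgeR).

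Basal ducts of the PR-cre model lay below those of the Elf5 model for Kitl, with a log2 difference of -0.62 ± 0.28, which did not pass (adjusted p = 0.251, edgeR), though it did in a fit of only those 4 libraries (adjusted p = 0.0379, edgeR). Kit differed there by -0.47 ± 0.74 (adjusted p = 0.823, edgeR). Mouse model and reporter cannot be told apart in the luminal gates, since each model has its own reporter.

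Receptor and ligand transcripts were set beside each other per kilobase of the deposited gene length, 5182 bases for Kit and 5450 for Kitl. In basal ducts Kitl exceeded Kit 124-fold to 173-fold in the 4 libraries, and in basal TEBs 3.18-fold to 5.04-fold. In the GFP+ gate Kit exceeded Kitl 2.01-fold and 2.07-fold in ducts and 4.37-fold and 3.80-fold in TEBs. In the YFP- gate Kit exceeded Kitl 12.9-fold and 16.1-fold in ducts and 8.48-fold and 11.7-fold in TEBs. So all 8 progenitor-side libraries had more receptor than ligand transcript and all 8 basal ones had more ligand.

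The hormone-sensing side was mixed. YFP+ ducts had 1.34-fold and 1.28-fold more Kit than Kitl per kilobase, and YFP+ TEBs 2.75-fold and 5.0-fold more Kitl than Kit. In GFP- cells Kitl exceeded Kit in all 4 libraries, 87.7-fold and 11.6-fold in ducts and 87.6-fold and 39.0-fold in TEBs. In all, 10 of 24 libraries had more Kit per kilobase. Over the 12 group means of log2 CPM, Pearson's r of Kit and Kitl was -0.41 and Spearman's rho -0.46, and over the 8 luminal groups -0.03 and -0.14. These describe groups whose libraries were scaled together and may share preparations.

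**Figure D3:**
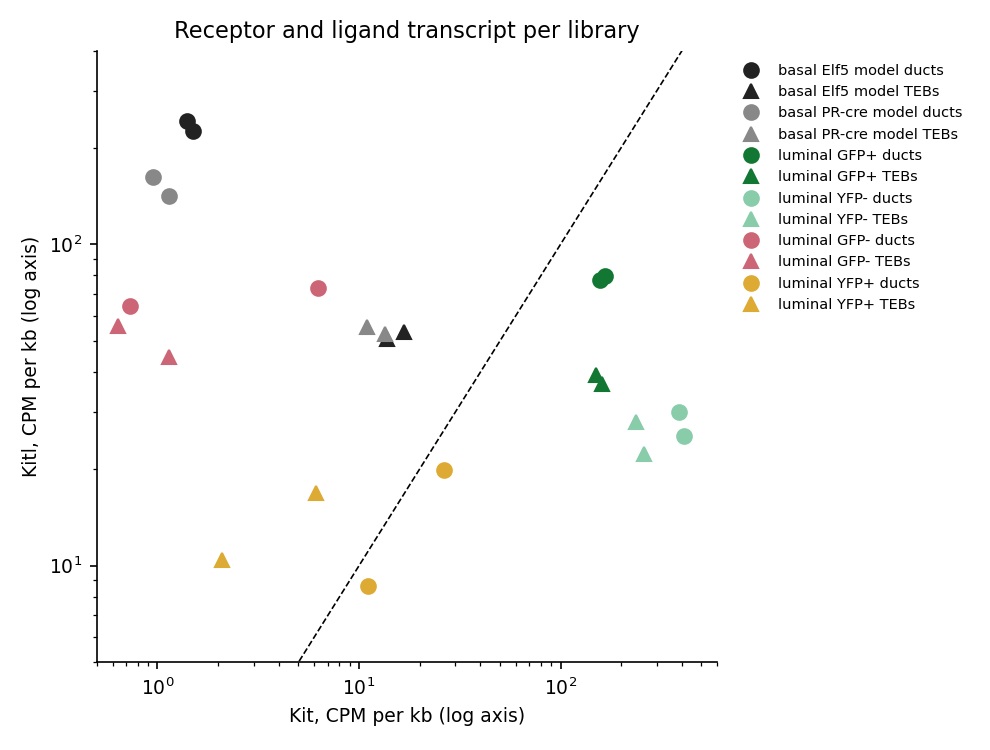
Kit (x) against Kitl (y) in each of the 24 libraries, in CPM per kilobase of gene length on log axes, with circles for ducts, triangles for TEBs and colours for the sorted populations. The dashed line marks equal values. The 8 GFP+ and YFP- libraries and the 2 of YFP+ ducts lie to its right, and the basal libraries lie to its left, with basal TEBs nearer to it than basal ducts.

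Downstream of the receptor, 36 relay genes and 17 genes that restrain Kit or its ERK branch were listed, and all 53 were tested. In basal TEBs 15 rose and 23 fell, 71.7% of the list against 43.6% of all genes tested. In luminal TEBs 13 rose and 9 fell, 41.5% against 38.7%. On the progenitor side 29 were higher and 16 lower in ducts, 84.9% against 47.9%, and 25 were higher and 16 lower in TEBs, 77.4% against 47.6%. Most of these genes are expressed in many cells and serve many receptors, and both directions were common in every comparison. The list was not matched to all genes by level of expression. A higher share called is therefore not read as a trait of the list.

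Among the 36 relay genes, 11 rose and 18 fell in basal TEBs, where 43.6% of all genes were called. Their median log2 difference was -0.20 against -0.04 over all genes. Grb10, an adaptor that binds activated receptors, rose from 14.0 to 65.7 CPM (log2 2.49 ± 0.15, adjusted p = 3.91e-09, edgeR). Over the libraries of both models together its level spread widely within each tissue, with SDs of 11.3 CPM in basal ducts and 41.2 CPM in basal TEBs. These SDs do not separate the models from the replicates. Pik3r1, the regulatory subunit through which PI3-kinase docks on Kit, fell from 741 to 232 CPM (-1.69 ± 0.14, adjusted p = 1.09e-07, edgeR). Pik3cd, a catalytic subunit of that kinase, fell from 4.79 to 1.29 CPM. Leukocyte genes were also lower in basal TEBs than in basal ducts, and their part in the fall of Pik3cd was not tested. Stat5a and Stat5b, transcription factors that receptor kinases activate, fell by 0.96 and 0.61 on the log2 scale. Akt1, Akt2, Hras and Nras rose.

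In luminal TEBs 11 of the 36 relay genes rose and 6 fell, with a median of 0.07, where 38.7% of all genes were called. Pik3cd, which fell in basal TEBs, rose there by 0.98 ± 0.18, while Pik3r1 fell in both, here by 0.95 ± 0.10.

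The progenitor side, where Kit is abundant, had 19 of the 36 relay genes higher and 11 lower in ducts. In TEBs 16 were higher and 14 lower. Of all genes 47.9% and 47.6% were called in these comparisons. Fyn, a kinase of the Src family, was 9.33 against 1.30 CPM in ducts (log2 2.89 ± 0.28, adjusted p = 2.64e-07, edgeR) and 12.1 against 0.79 CPM in TEBs (3.92 ± 0.29). Gab2, a scaffold for PI3-kinase, was 65.8 against 14.3 CPM in ducts (2.22 ± 0.16) and 61.3 against 9.46 CPM in TEBs (2.86 ± 0.16). Lyn, another kinase of that family, was 143 against 40.9 CPM in ducts and 123 against 46.1 CPM in TEBs. Hras, Akt1, Akt2, Map2k1 and Map2k2 were among the genes lower on the progenitor side in both tissues.

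Of the 17 restraining genes 10 were higher and 5 lower on the progenitor side in ducts, with a median of 0.52, and 9 were higher and 2 lower in TEBs, with a median of 0.47. Over all genes the medians were 0.00 and 0.06, and 47.9% and 47.6% were called. Spry2, Spry4 and Dusp6, feedback inhibitors of the ERK branch, were among those higher in both. Spry2 was 130 against 18.8 CPM in ducts (log2 2.76 ± 0.13) and 91.5 against 13.7 CPM in TEBs (2.71 ± 0.13). Dusp6, a phosphatase of ERK, was 644 against 153 CPM in ducts (1.98 ± 0.15) and 433 against 87.8 CPM in TEBs (2.40 ± 0.15).

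These feedback genes also moved with the tissue. In basal TEBs Spry2, Spry4 and Dusp6 rose by 0.96, 0.74 and 0.64 on the log2 scale, and in luminal TEBs they differed by -0.48, -0.27 and -0.69, all called. Other restraining genes went other ways. Spry1 was called higher in luminal TEBs, by 0.41, and Ptpn6 differed by -0.55 in basal and 0.23 in luminal TEBs, both called. A tie of these genes to Kit was not tested. In basal TEBs 4 of the 17 restraining genes rose and 5 fell, against 43.6% of all genes called. Of them Prkca, a kinase that phosphorylates Kit and lowers its activity, fell most, from 118 to 38.7 CPM (-1.62 ± 0.13, adjusted p = 6.27e-08, edgeR). In luminal TEBs 2 of the 17 rose and 3 fell, against 38.7% of all genes called.

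**Figure D4:**
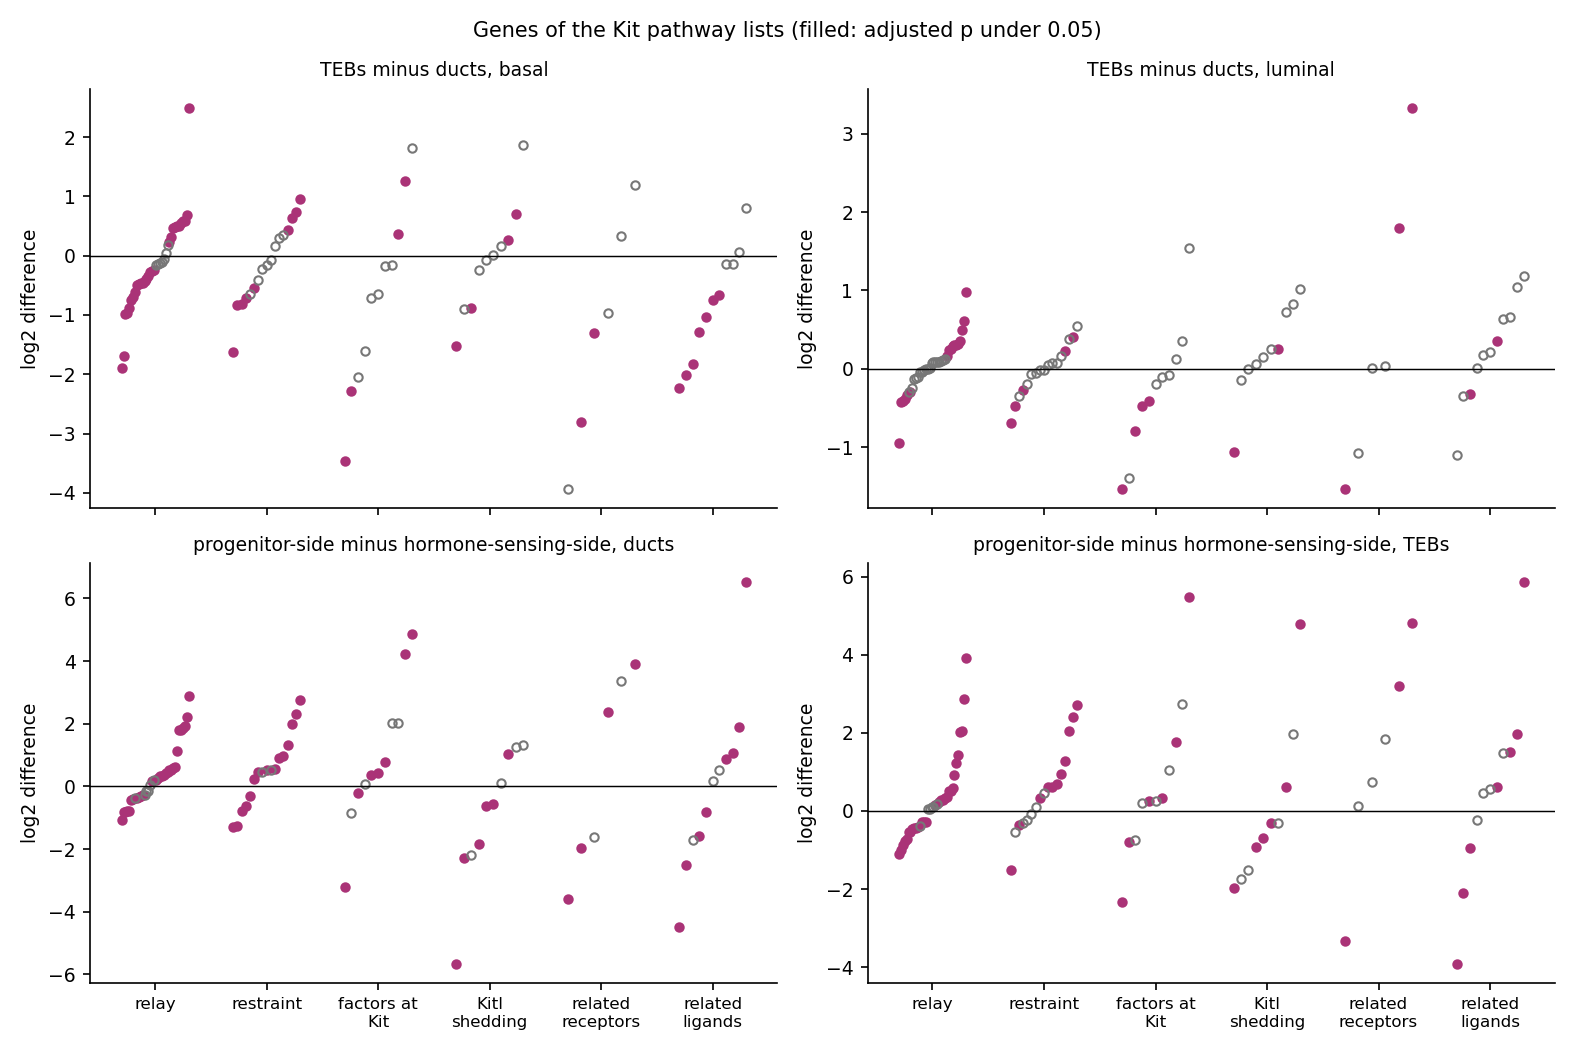
Log2 difference of each tested gene of 6 lists around Kit and Kitl, in 4 comparisons, sorted within a list, with filled points for genes called at an adjusted p under 0.05 by edgeR. Relay and restraint genes spread to both sides of 0 in every panel. In the basal panel the ligands of related receptors hold 7 filled points, all below 0.

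Of 12 transcription factors described at the Kit gene in blood, mast or pigment cells, 11 were tested. In basal TEBs 2 rose and 2 fell, 4 of 11 in a comparison that called 43.6% of all genes, so the list is not set apart by its count. Runx1, a regulator of blood and mammary cells, fell from 850 to 178 CPM (log2 -2.28 ± 0.09, adjusted p = 2.28e-11, edgeR) and Myb rose from 4.15 to 8.87 CPM (1.26 ± 0.16). In luminal TEBs, where 38.7% of all genes were called, 0 rose and 4 fell, among them Mitf, the pigment cell factor (-1.53 ± 0.22), and Runx1 (-0.79 ± 0.06).

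On the progenitor side 5 of these factors were higher and 2 lower in ducts, and 4 higher and 2 lower in TEBs, against 47.9% and 47.6% of all genes called. Lmo2, a bridging protein of blood cell complexes, was 17.4 against 0.804 CPM in ducts and 9.05 against 0.207 CPM in TEBs. Myb was lower there, at 13.3 against 122 CPM in ducts (-3.20 ± 0.16) and 13.6 against 68.2 CPM in TEBs (-2.32 ± 0.16). Fli1, an ETS factor, was at 1.39 CPM in basal ducts and at or under 0.222 CPM on average in the other 5 sets, and leukocyte and endothelial genes were also lower in basal TEBs than in basal ducts.

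For the release of Kit ligand, 10 proteases, cofactors and an inhibitor were listed and tested. In basal TEBs Adam17 and Adam10, metalloproteases that shed membrane proteins, rose, and Timp3, an inhibitor of Adam17, and Rhbdf2, a cofactor of it, fell. These 4 of 10 stand beside 43.6% of all genes called there. Adam17 went from 72.0 to 117 CPM (log2 0.71 ± 0.07, adjusted p = 2.85e-07, edgeR) and Timp3 from 934 to 323 CPM (-1.53 ± 0.51, adjusted p = 0.0274, edgeR). In luminal TEBs Adam17 rose by 0.25 ± 0.05 and Timp3 fell by 1.06 ± 0.38.

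On the progenitor side Adam10 was lower, at 170 against 841 CPM in ducts (-2.28 ± 0.09) and 209 against 821 CPM in TEBs (-1.97 ± 0.09). In all, 1 of the 10 was higher and 5 lower in ducts, and 2 higher and 4 lower in TEBs, 6 of 10 in each, while 47.9% and 47.6% of all genes were called. Timp3 was 75.8 against 2.72 CPM in TEBs (4.79 ± 0.61), and in ducts its 109 against 20.4 CPM did not pass (1.26, adjusted p = 0.0652, edgeR).

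The receptors related to Kit include its neighbours on chromosome 5. Pdgfra, a receptor for platelet-derived growth factors that also marks fibroblasts, was 28.7 against 1.81 CPM on the progenitor side of ducts (log2 3.90 ± 0.27, adjusted p = 3.92e-09, edgeR) and 7.44 against 1.11 CPM in TEBs (3.19 ± 0.28). In the tissue comparison it did not pass in the basal gate (0.33, adjusted p = 0.274, edgeR) and fell in the luminal gates (-1.54 ± 0.19). In the GFP+ gate it went from 34.8 and 42.6 CPM in ducts to 4.17 and 7.20 CPM in TEBs, where Kit overlapped. Kdr, a receptor for vascular endothelial growth factors, was 2.23 CPM in basal ducts and 5.58 CPM in basal TEBs (1.20, adjusted p = 0.0947, edgeR) and at or under 0.62 CPM on average in each luminal set.

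Of the 7 related receptors 6 were tested, with 0 higher and 2 lower in basal TEBs and 2 higher and 1 lower in luminal TEBs. These counts are close to the shares of all genes called, 43.6% in basal and 38.7% in luminal TEBs. Flt1, a decoy receptor for these growth factors, was 3.52 CPM in basal ducts and 0.322 CPM in basal TEBs (-2.81 ± 0.51), and it rose in luminal TEBs (3.33 ± 0.34), reaching 30.0 CPM on the hormone-sensing side. Of the 7 endothelial genes 5 were also lower in basal TEBs and 1 was higher in luminal TEBs.

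The 11 ligands of these receptors had 0 higher and 7 lower in basal TEBs, the direction of Kitl, with a median of -0.74 on the log2 scale. Over all genes 20.9% were higher and 22.8% lower, with a median of -0.04. Csf1, a growth factor for macrophages, went from 107 to 51.4 CPM, Pdgfc from 264 to 166 CPM and Vegfc from 24.3 to 7.32 CPM. Of the leukocyte genes 5 of 8 and of the endothelial genes 5 of 7 were lower in the same comparison, and their part was not tested. In luminal TEBs 1 rose and 1 fell, against 38.7% of all genes called. On the progenitor side 4 were higher and 4 lower in ducts and 4 higher and 3 lower in TEBs, against 47.9% and 47.6%. Vegfc was 5.72 against 0.232 CPM in ducts, and Vegfd was on the other side, at 0.174 against 4.31 CPM.

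The genes most like Kit over the 12 group means, by Pearson's r of log2 CPM among 12930 genes, were Kcnk5, Ntn1 and Erbb4, each with r = 0.968, Arhgef37 with 0.956 and Sfxn5 with 0.948. These genes were picked for likeness to Kit over the same groups, basal ones included. Their values below therefore describe that choice and are not separate evidence. Ntn1, which encodes the secreted protein netrin, was 749 CPM in YFP- ducts and 397 CPM in GFP+ ducts, and 1.67 CPM in GFP- TEBs. In the basal gate Ntn1 went from 12.9 to 23.0 CPM in the Elf5 model and from 7.10 to 16.4 CPM in the PR-cre model. Kcnk5, a potassium channel, went from 10.9 to 27.4 CPM and from 13.1 to 22.2 CPM. Erbb4, another receptor tyrosine kinase, went from 0.544 to 2.99 CPM and from 0.335 to 1.79 CPM.

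The genes most like Kitl were Slc7a6os with r = 0.949, Dnaja1 with 0.942, Slc38a2 and 1810013L24Rik with 0.926 each, and Midn with 0.921. Their values, too, describe the choice by likeness. Dnaja1, a chaperone partner, was 549 CPM in basal ducts and 210 CPM in basal TEBs of the Elf5 model, and 121 CPM in YFP+ TEBs. Slc38a2, an amino acid transporter, was 1458 CPM in basal ducts and 749 CPM in basal TEBs of that model. Taken over the 24 libraries in place of the 12 groups, 2 of the 5 genes nearest to Kit and 4 of the 5 nearest to Kitl stayed among the nearest 5.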

How the data were processed

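The authors deposited whole-number read counts per gene with a gene length, for 24 libraries; the single tables and the whole-series table differed in 0 values. Per the labels' protocols, a miRNeasy kit and DNase gave the RNA, and the library kit was Illumina's TruSeq v2, whose reads carry no strand. Per the submitters' processing notes, featureCounts and the build mm10 were used. Not given in the sources used here are the aligner, the annotation, the strand setting and the handling of multi-mapped reads. Groups and replicate numbers came from the sample titles.

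Symbols came from RefSeq for 25275 genes and from GENCODE for 17, and 1887 genes, with 1.22% of counts, had none. The counts were tested in R 4.3.3 with edgeR 4.0.16, beside limma 3.58.1. The filter was filterByExpr (minimum count 10, minimum total 15), which left 18109. Libraries were scaled by TMM. A robust quasi-likelihood model with 12 group means was fitted to all 24 libraries (12 residual degrees of freedom), and contrasts of group means on the log2 scale were tested, with Benjamini-Hochberg adjustment over all genes tested and calls at an adjusted p under 0.05. SEs of log2 differences were taken from the F statistic (absolute difference over root F). The procedure was tested on simulated data.

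Alternatives were DESeq2 1.42.0 and its size factors, no filter, a replicate block, only the libraries compared, no libraries with keratinocyte transcripts, and each library left out. Named pathway genes are those with the 3 largest called changes per list and comparison, with neighbours of Kit and the 5 genes most like each member. Lyn, Akt1, Akt2, Stat5a, Stat5b, Csf1, Hras, Nras and the other genes listed by name without a rank were named after their values were seen. Some genes that the rule names are not reported here. The members and lists were chosen with earlier results of these data known.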

Additional observations from a re-analysis of the deposited data

Results flagged for a closer look

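The fall of Kitl in TEBs differed between the basal and the luminal gate. The basal effect minus the luminal effect was -1.40 ± 0.24 on the log2 scale (adjusted p = 0.000532, edgeR's quasi-likelihood test), from a direct test of the difference over all 24 libraries. Each basal TEB library lay below each basal duct library. The ranges of all luminal libraries together overlapped, since the gates differ in level. By gate the tissues did not overlap in GFP+ and GFP- cells and did overlap in YFP+ and YFP- cells.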

How the results depend on the processing

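Of 302 alternative values other than those that left out 1 library, 282 stayed the same, 9 came to pass the threshold, 6 no longer passed, 3 moved and 2 turned sign. For a test, the same means the same direction and side of the threshold. For a described value of Kit it means the same direction and a move under the pooled replicate SD, 0.78 on the log2 scale. For counts of genes and lists of nearest genes it means within 1.5-fold. The list of genes most like Kit is among those that moved. Without the 2 libraries that held keratinocyte transcripts Kit's tissue difference in the GFP- gate turned from -1.97 to 0.28 and Kitl's in the YFP- gate from -0.14 to 0.01. Kitl calls were lost without them at -0.38 (luminal TEBs), -0.52 (progenitor-side TEBs) and 0.60 (reporter sides, ducts), and with only the libraries compared at -0.44 (luminal TEBs) and 0.58 (reporter sides, ducts). Adjusted p-values over the alternatives other than single left-out libraries were 0.00184 to 0.103, 0.000271 to 0.122 and 0.00777 to 0.104 (edgeR and DESeq2) for these 3 results. The cause was not tested.

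Leaving out 1 library at a time gave these ranges for Kitl: -0.56 to -0.25 in luminal TEBs, -0.68 to -0.52 on the progenitor side, -0.50 to 0.11 on the hormone-sensing side (above 0 without replicate 1 of the YFP+ ducts, called without replicate 2), -0.73 to -0.13 for the difference of those effects, 0.31 to 0.92 between reporter sides in ducts, -1.09 to -1.0 in the GFP+ gate, -0.56 to 0.66 in the YFP+ gate and -0.32 to 0.02 in the YFP- gate. For Kit they were -1.47 to -0.67 over luminal TEBs, -2.56 to -0.96 on the hormone-sensing side, 0.57 to 2.17 for the difference between sides, -0.11 to 0.00 in the GFP+ gate, -2.78 to 0.30 in the GFP- gate and -3.17 to -1.43 in the YFP+ gate. Where 1 library was left in a group, it was assumed to vary like the others.

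The labels do not tie libraries of the same replicate number, and over 30 pairs of groups within a model the correlation of replicate differences was 0 to 0.15, above 0.1 in 4. With the replicate number as a block Kitl's difference was -1.83 in basal and -0.42 in luminal TEBs, Kit's reporter difference was 5.11 in ducts and 6.79 in TEBs, and Kit in YFP+ over GFP- ducts came to pass (2.51, adjusted p = 0.046, edgeR). Scalings moved the median of all genes by less than 0.1 on the log2 scale.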
